A study of Arabidopsis thaliana with 24 samples.

Results

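AT3G54400, AT1G32970 and scpl30 (AT4G15100) encode an aspartyl protease, a subtilase and a serine carboxypeptidase-like protein, and their transcripts responded to chitin differently in wild-type and mutant Arabidopsis thaliana seedlings. Each was measured by 1 probe set of the ATH1 array (251899_at, 261215_at and 245531_at), so that they are 3 of the 22746 probe sets that are not controls, and 3 of the 13287 genes matched by a probe set of their own. They were picked for the very pattern described here, their levels in all 6 groups of line and treatment. Their values are therefore a description, given with errors and without p-values, and tests are given only for other genes.

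Wild-type Col-0 was compared with the T-DNA line atl9 (labelled rre1-1, SALK_066755, in At2g35000) and with the T-DNA line rre2 (labelled rre2-1, SALK_133789, in At3g16720), and each mutant is represented by 1 insertion line. Whole seedlings grew for 14 days in liquid culture under constant light, and were then given hydrolysed crab shell chitin at 100 mg/L, or water as the mock treatment, for 30 min. Each of the 6 groups had 4 biological replicates with 1 array each, 24 arrays in all. The labels name no other allele or agent.

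Chitin is a polymer of fungal cell walls that plants detect at the cell surface as a sign of infection. Aspartyl proteases cut proteins with a pair of aspartates in the active site, in the manner of pepsin, and many plant members enter the secretory pathway. Subtilases are serine proteases, most of them secreted to the cell wall space, where some process hormones or defence proteins. Serine carboxypeptidase-like proteins share the fold of enzymes that trim proteins from the carboxyl end, but several of them in Arabidopsis act as acyltransferases in the making of secondary metabolites.

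Levels are given as the deposited signal divided by the median signal of its array, so that a level of 1 is that of the median probe set. The array medians lay between 162 and 189 on the mock arrays and between 139 and 168 on the chitin arrays. Every group had 2 arrays from the last of 4 scan days and 2 from earlier days. The fluidics station washed and stained the mock arrays on its modules 1 and 3 and the others on 2 and 4, so that treatment and module cannot be told apart. The deposited values carry no detection calls, and very low signals may be background.

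The level of AT3G54400 had a geometric mean of 10.1 times the array median over all arrays. In mock-treated Col-0 its level was 8.62, 8.88, 9.93 and 9.69 in replicates 1 to 4, and after chitin it was 20.6, 20.6, 22.8 and 22.3. The 4 chitin-treated Col-0 arrays stood above all of the other 20 arrays, which reached 10.8 at most. How many of all probe sets had this separation was not counted. In atl9 the level was 8.24, 10.7, 10.8 and 9.56 in mock and 7.26, 7.30, 7.33 and 10.3 after chitin. In rre2 it was 9.34, 8.70, 9.71 and 8.0 in mock and 10.6, 6.51, 5.59 and 8.19 after chitin. In both mutants the chitin and mock arrays overlapped, and most of the chitin arrays lay at or below the mock level.

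The chitin response of AT3G54400, the mean log2 level after chitin minus that in mock, was 1.22 ± 0.16 in Col-0 (limma's SE, n = 4 and 4), a 2.32-fold higher level. In atl9 it was -0.29 ± 0.16 and in rre2 -0.25 ± 0.16. The response of atl9 minus that of Col-0 was -1.51 ± 0.22, and that of rre2 minus Col-0 was -1.47 ± 0.22. The mutants differed from each other in this response by -0.05 ± 0.22 (atl9 minus rre2). In mock, atl9 minus Col-0 was 0.08 ± 0.16 and rre2 minus Col-0 was -0.06 ± 0.16. The line difference thus stood in the chitin-treated arrays, where both mutants lay below Col-0, at -1.44 ± 0.16 and -1.52 ± 0.16. In the order of the 6 groups, Col-0 chitin came first, without overlap with the next group, and no other neighbours in that order were separated. Within its groups AT3G54400 had an SD of 0.22 (log2), and 35.4% of the probe sets tested, the 72.7% with the highest mean level, had a smaller one, as had 60.5% of the 501 nearest in level.

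The shoot markers of the fixed list were higher after chitin in Col-0, as AT3G54400 was. In atl9 their median sum was higher after chitin and in rre2 it was lower, and in both lines the mock and chitin ranges overlapped. The mean response of the gene was below 0 in both mutants. Of 18 photosynthesis genes listed, 4 had a probe set matched to them (RCA, PSAN, LHCB4.1 and LHCB4.2), and their summed level ranged from 82.8 to 116 in mock-treated and from 159 to 197 in chitin-treated Col-0. The sums ranged from 109 to 125 (median 118) in mock and from 92.0 to 175 (median 139) in chitin arrays of atl9. In rre2 they ranged from 79.6 to 139 (median 104) in mock and from 73.9 to 111 (median 91.2) in chitin arrays. All 4 passed the limma test as higher after chitin in Col-0, beside 11.8% of all probe sets tested. In atl9 and in rre2, 0 of 4 passed, beside 7.74% and 8.55%, and 1 of 4 had an unadjusted p under 0.05 in each. Among chitin-treated arrays, limma called 4 of 4 lower for rre2 minus Col-0 (median -0.92) and 1 of 4 for atl9 minus Col-0 (median -0.34). Of all probe sets, 5.33% and 7.60% were. By the difference of responses from Col-0, limma called 1 of 4 for rre2 and 0 of 4 for atl9 (0.242% and 0.345% of all). At an unadjusted p under 0.05 there were 4 and 2 (14.0% and 13.9% of all). Of 17 genes that the fixed list took as root markers, 4 had a probe set (SPT, AT3G01190, EXPA7 and EXPA18). Whether each of these 4 marks root in such seedlings was not tested. The sums of these 4 were 25.0 to 33.3 in mock and 31.4 to 39.5 after chitin in Col-0, and 17.8 to 32 over all arrays of the mutants. None of these 8 markers was near 0, since the lowest, SPT, was at 0.479 times the median or above. The part of these markers in the result for AT3G54400 was not tested. In bulk tissue, fewer cells of a type and less RNA per cell cannot be told apart.

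**Figure D1:**
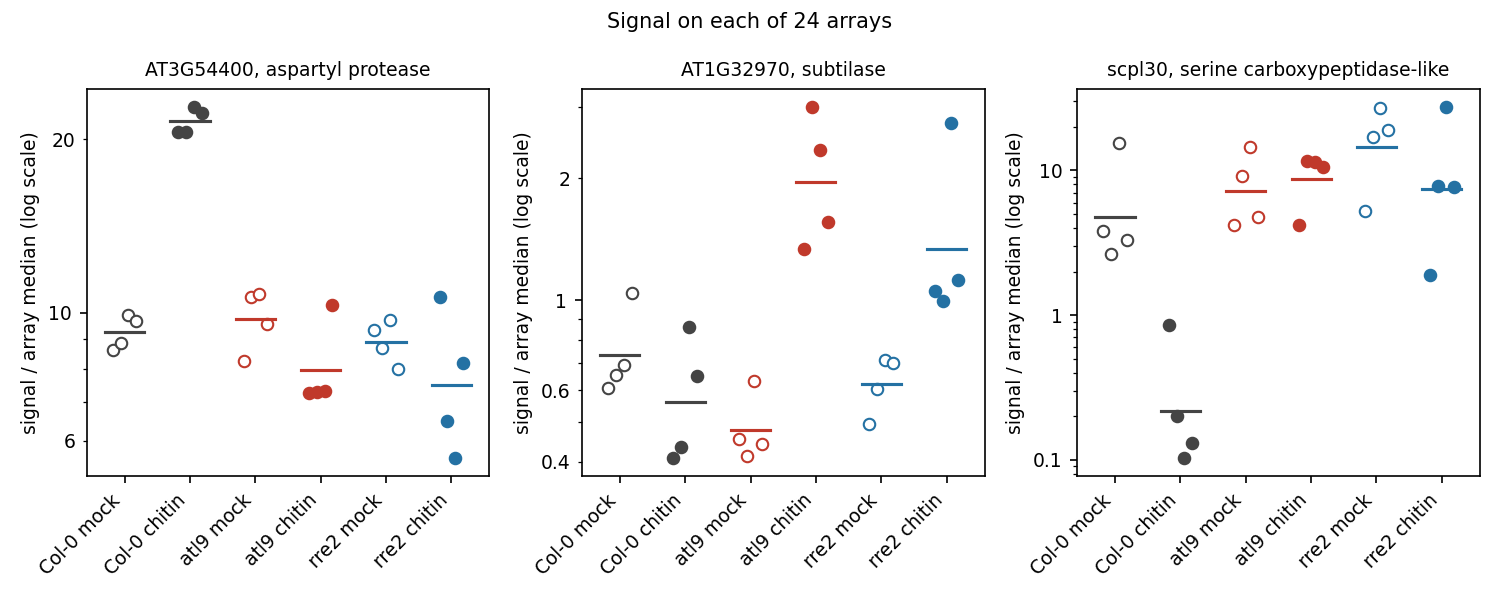
Signal of AT3G54400, AT1G32970 and scpl30 divided by the array median (log axis) on each of the 24 arrays; open points are mock and filled points chitin arrays, and bars are geometric means of 4 arrays. AT3G54400 is raised only in chitin-treated Col-0 (20.6 to 22.8), AT1G32970 is raised in both mutants after chitin (1.00 to 3.00), and scpl30 is low only in chitin-treated Col-0 (0.102 to 0.859).

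AT1G32970 showed the opposite arrangement, with a response in the mutants and none beyond the spread in the wild type. Its level was 0.608, 0.655, 0.693 and 1.04 times the array median in mock-treated Col-0 and 0.407, 0.434, 0.859 and 0.649 after chitin. In atl9 the level was 0.454, 0.413, 0.634 and 0.443 in mock and 1.34, 3.00, 2.34 and 1.56 after chitin. In rre2 it was 0.496, 0.606, 0.713 and 0.698 in mock and 1.05, 0.998, 2.73 and 1.12 after chitin. In both mutants all chitin arrays lay above all mock arrays of the same line and above all chitin arrays of Col-0, whereas the Col-0 groups overlapped. The deposited signals behind these levels were 56.5 to 179.7 on the Col-0 arrays and 156.8 to 451.5 on the chitin arrays of the mutants.

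The chitin response of AT1G32970 was -0.39 ± 0.31 in Col-0, 2.03 ± 0.31 in atl9 (4.09-fold) and 1.11 ± 0.31 in rre2 (2.15-fold), on the log2 scale with limma's SE. The response of atl9 minus that of Col-0 was 2.42 ± 0.43, and for rre2 it was 1.49 ± 0.43. The response of atl9 exceeded that of rre2 by 0.93 ± 0.43. After chitin, atl9 was above Col-0 by 1.80 ± 0.31 and rre2 by 1.26 ± 0.31. In mock both mutants were below Col-0, by -0.61 ± 0.31 and -0.24 ± 0.31, and the arrays overlapped. Ordered by mean log2 level, the groups ran from atl9 chitin and rre2 chitin through Col-0 mock, rre2 mock and Col-0 chitin to atl9 mock, and each overlapped with the next. With 32 added to every signal before the logarithm, atl9 minus Col-0 became 1.95 ± 0.36. The SD within groups was 0.46, above that of 85.3% of the probe sets tested and of 92.2% of the 501 probe sets nearest in level.

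scpl30 was lower after chitin than in mock without overlap in Col-0 but not in the mutants, and it was the most variable of the 3 genes. In mock-treated Col-0 its level was 3.82, 2.65, 15.4 and 3.3 times the array median, and after chitin it was 0.859, 0.200, 0.102 and 0.131. The Col-0 groups did not overlap, and the 4 chitin arrays were the lowest of all 24, the next being 1.88. The share of all probe sets with their 4 lowest arrays in this group was not counted. In atl9 the level was 4.19, 9.19, 14.5 and 4.78 in mock and 4.22, 11.5, 11.5 and 10.5 after chitin. In rre2 it was 5.20, 17.0, 27.0 and 18.9 in mock and 1.88, 7.78, 27.6 and 7.63 after chitin. Chitin and mock arrays overlapped in both mutants. The gene is also in a list that the study chose on these samples, so its direction in atl9 and Col-0 there is no independent evidence.

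The chitin response of scpl30 was -4.44 ± 0.75 (log2) in Col-0, 0.29 ± 0.75 in atl9 and -0.97 ± 0.75 in rre2. The response of atl9 minus that of Col-0 was 4.73 ± 1.07 and that of rre2 minus Col-0 was 3.48 ± 1.07, while atl9 minus rre2 was 1.26 ± 1.07. After chitin, atl9 was above Col-0 by 5.33 ± 0.75 and rre2 by 5.09 ± 0.75, and with 32 added to every signal by 4.29 ± 0.65 and 4.08 ± 0.65. In mock the differences from Col-0 were 0.59 ± 0.75 for atl9 and 1.62 ± 0.75 for rre2. Apart from Col-0 chitin, which was last, the groups overlapped with their neighbours in the order rre2 mock, atl9 chitin, rre2 chitin, atl9 mock and Col-0 mock.

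The size of the scpl30 response in Col-0 rests on low signals. The 4 chitin arrays had deposited signals between 16.2 and 119.2, against 450 to 2802.1 in mock, and with 32 added to every signal the response was -3.44. The mock replicate at 15.4 and the chitin replicate at 0.859 pulled the mean in opposite directions. Without Col-0 mock replicate 3 the response was -3.88, and without Col-0 chitin replicate 1 it was -5.10. In rre2 it was -0.31 without chitin replicate 1 and -1.60 without chitin replicate 3, and the difference from Col-0 was then 4.14 and 2.85. In atl9 it ranged from 0.03, without mock replicate 1, to 0.64, without chitin replicate 1. The SD within groups was 1.15, above that of 99.4% of the probe sets tested and of 99.8% of the 501 nearest in level, and the median among these 501 was 0.20.

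**Figure D2:**
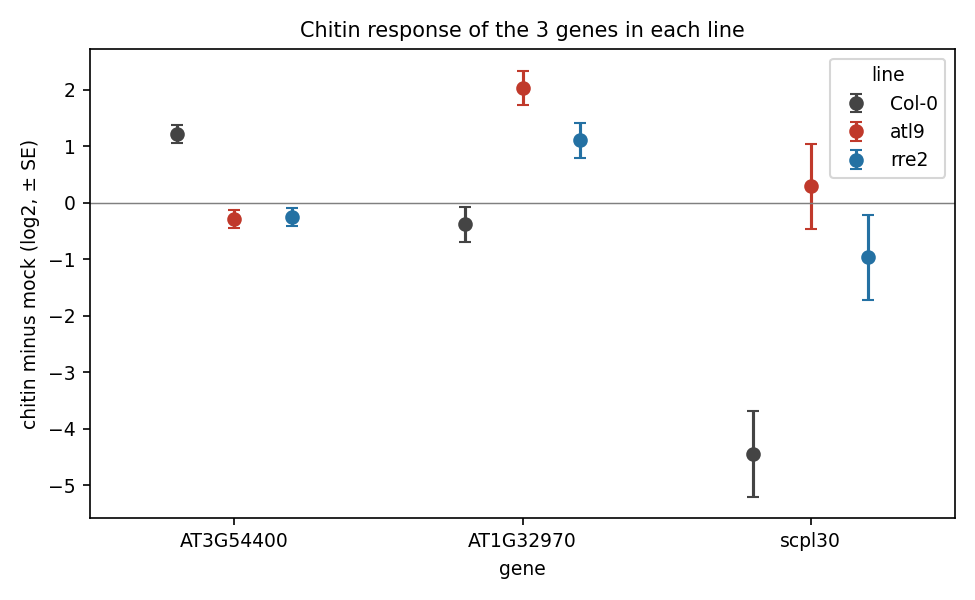
Chitin response of the 3 genes, the mean log2 level after chitin minus that in mock, in Col-0, atl9 and rre2; points are differences of 4 against 4 arrays and bars limma's SE. AT3G54400 is above 0 in Col-0 alone (1.22), AT1G32970 in atl9 (2.03) and rre2 (1.11), and scpl30 is far below 0 in Col-0 (-4.44).

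Chitin and mock arrays without overlap were common across the array, which is the background for these 3 genes. In Col-0, AT3G54400 was higher without overlap, as were 14.2% of the probe sets tested, and scpl30 was lower without overlap, as were 6.21%. AT1G32970 was higher without overlap in atl9 and in rre2, as were 9.77% and 9.93% of all. After chitin, AT1G32970 and scpl30 were above Col-0 without overlap in atl9 and in rre2 (7.07% and 6.53% of all), and AT3G54400 was below it (10.5% and 8.68% of all). In mock, all 3 genes overlapped with Col-0 in both mutants. Of all probe sets, 2.00% were higher and 2.71% lower without overlap in mock-treated atl9, and 1.83% and 1.34% in rre2. The rule that chose the genes used these contrasts, so their counts carry no weight beside the background. The comparisons of the mutants with Col-0 share the Col-0 arrays.

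Responses taken within scan days differed little for the first of the 3 genes and more for the other 2. On the last scan day alone, with 2 arrays per group, the response of AT3G54400 was 1.21 in Col-0, -0.28 in atl9 and -0.06 in rre2. On the single pairs of earlier days it was 1.25 in Col-0, -0.55 and -0.06 in atl9, and -0.64 and -0.25 in rre2. The response of AT1G32970 on the last day was -0.68 in Col-0, 2.56 in atl9 and 0.80 in rre2. Its earlier pairs gave -0.49 in Col-0, 1.70 and 1.30 in atl9, and 2.17 and 0.65 in rre2. The response of scpl30 on the last day was -3.14 in Col-0, 1.36 in atl9 and -1.38 in rre2, and its earlier pairs gave -4.26 in Col-0, -1.12 and -0.46 in atl9, and 0.70 and -1.82 in rre2. The Col-0 value thus kept its sign for all 3 genes on each day that held both treatments of Col-0. The mutants' values kept theirs for AT1G32970 and for AT3G54400, where they came as near 0 as -0.06. The sign of scpl30 within the mutants differed between these values. Each earlier value is 1 chitin array against 1 mock array, and the SD of scpl30 within groups was 1.15. Day and array thus cannot be told apart.

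AT1G32970 lies on chromosome 1 in a run of subtilase genes, and its nearest neighbours were compared with it. SBT3.3 (AT1G32960), known in Arabidopsis for a part in immune priming, is the next gene on 1 side. Its level was 2.31, 3.50, 2.78 and 3.01 in mock-treated Col-0 and 6.56, 4.19, 4.09 and 4.20 after chitin. In atl9 it was 2.79, 3.04, 2.21 and 2.10 in mock and 5.54, 7.01, 4.87 and 5.34 after chitin, and in rre2 it was 3.24, 3.06, 3.70 and 2.97 and then 6.07, 6.18, 6.18 and 7.04. SBT3.3 rose after chitin in all lines without overlap of the arrays, unlike AT1G32970, whose Col-0 arrays overlapped.

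The responses of SBT3.3 were 0.70 ± 0.16 in Col-0 (limma adjusted p = 0.0042), 1.17 ± 0.16 in atl9 (adjusted p = 1.5e-05) and 0.98 ± 0.16 in rre2 (adjusted p = 0.00013). The differences of its responses from Col-0, 0.47 ± 0.23 and 0.28 ± 0.23, did not pass (limma adjusted p = 0.38 and 0.64). AT1G32950, the next subtilase with a probe set, was at 0.37 to 0.54 times the median in its group means and passed in none of the lines. AT1G32980, on the other side, was too low to be tested, at 0.336 times the median or less on every array. Near-identical subtilases can bind each other's probes, and the part of this in the signal of AT1G32970 was not tested.

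The neighbours of the other 2 genes gave no call in the difference of responses. Beside AT3G54400 on chromosome 3, AT3G54390 and AT3G54510 were tested and passed in no line. Beside scpl30 on chromosome 4, AT4G15120 rose in all lines, by 0.99 ± 0.15 in Col-0, 1.33 ± 0.15 in atl9 and 1.61 ± 0.15 in rre2 (limma adjusted p = 3.7e-05, 4.7e-07 and 2.3e-08). LigB fell in Col-0 by 0.44 ± 0.14 (limma adjusted p = 0.035). CCT2, which acts in phosphatidylcholine synthesis, rose in rre2 by 0.87 ± 0.21 (limma adjusted p = 0.0068). Neither of these last 2 genes passed in the other lines, and their differences of responses from Col-0 had adjusted p-values of 0.11 or more.

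Other members of the families of the 3 genes were counted without the 3 genes themselves. Of 89 tested probe sets for 4 protease families (40 aspartyl proteases, 22 subtilases, 19 serine carboxypeptidase-like and 8 papain-like cysteine proteases), 21 rose and 1 fell in Col-0. Over the whole array, 11.8% of the probe sets tested rose and 5.67% fell in Col-0. In atl9, 4 of the 89 rose and 1 fell (7.74% and 3.09% of all), and in rre2, 5 rose and 1 fell (8.55% and 4.43% of all). The median response of the 89 was 0.27 in Col-0, 0.05 in atl9 and 0.01 in rre2, beside 0.05, 0.01 and 0.00 over all probe sets tested. The response was smaller than in Col-0 for 55 of the 89 in atl9 (61.8%) and for 59 in rre2 (66.3%), beside 52.1% and 53.1% of all probe sets tested.

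After chitin, the test against Col-0 called 0 of the 89 higher and 12 lower in atl9 (5.00% and 7.60% of all), and 0 higher and 18 lower in rre2 (3.82% and 5.33% of all). Without division by the array median, the 89 split into 12 that rose and 3 that fell in Col-0, into 3 and 2 in atl9 and into 4 and 13 in rre2. With quantile normalization the splits were 16 and 5, 4 and 3, and 4 and 10. The split over all probe sets moved with it. In Col-0, 67.5% of the called probe sets were higher by the median, 30.4% without division and 44.6% by quantiles, in atl9 the shares were 71.5%, 36.8% and 47.5%, and in rre2 65.9%, 32.7% and 46.0%. Which direction prevails over all called probe sets thus depends on the scaling in all 3 lines, and for the 89 it does in rre2. The direction of the 3 genes described here was the same under each of these scalings in every response. On the last scan day alone, 6 of the 89 rose in Col-0, and 0 differed from Col-0 after chitin in either mutant. That setting has 2 arrays per group and thus less power. The share of all probe sets called in it is not given here, so the lost calls cannot be assigned to these families.

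Among 40 aspartyl proteases, 12 rose and 1 fell in Col-0, 2 rose and 1 fell in atl9, and 3 rose and 1 fell in rre2. Of all probe sets tested, 11.8%, 7.74% and 8.55% rose in these lines and 5.67%, 3.09% and 4.43% fell. AT5G48430 rose from 0.558 ± 0.057 (SD, n = 4) times the array median in mock to 12.7 ± 2.6 after chitin in Col-0, from 0.640 ± 0.27 to 11.8 ± 2.1 in atl9 and from 0.623 ± 0.27 to 11.7 ± 3.0 in rre2. Its responses of 4.49, 4.29 and 4.29 (SE 0.29 each) were alike to within 0.20, the differences from Col-0 having an SE of 0.41. AT3G59080 rose by 2.28 ± 0.16 in Col-0, 2.64 ± 0.16 in atl9 and 2.71 ± 0.16 in rre2. AT3G51350 rose in Col-0 by 1.5 ± 0.46 (limma adjusted p = 0.027), and its values in atl9 and rre2 were 0.34 and 0.30 (SE 0.46 each). That call was lost without Col-0 mock replicate 2 or 3 or Col-0 chitin replicate 1 or 4 (limma adjusted p = 0.082, 0.064, 0.057 and 0.079). Over all alternatives, 5 of 33 lost it.

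AT1G09750, another aspartyl protease, had a pattern like that of AT3G54400. Its level was 6.65, 6.23, 4.76 and 6.35 in mock-treated Col-0 and 15.9, 14.1, 15.9 and 15.7 after chitin. It was 5.54, 6.24, 5.28 and 5.99 in mock and 6.85, 5.43, 5.74 and 7.21 after chitin in atl9, and 6.47, 5.06, 4.23 and 4.35 in mock and 8.15, 4.07, 3.59 and 4.31 after chitin in rre2. The 4 chitin-treated Col-0 arrays stood above the other 20, and the mutant groups overlapped. For this separation too, the share of all probe sets was not counted. Its response was 1.37 ± 0.19 in Col-0 (limma adjusted p = 1.8e-05), 0.12 ± 0.19 in atl9 and -0.06 ± 0.19 in rre2.

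For AT1G09750 the response of atl9 minus the response of Col-0 was -1.25 ± 0.27 (limma adjusted p = 0.048), and for rre2 minus Col-0 it was -1.43 ± 0.27 (adjusted p = 0.047). It was the only 1 of the 89 called in the difference of responses, in either mutant, beside 0.345% of all probe sets for atl9 and 0.242% for rre2. At an unadjusted p under 0.05 there were 21 of the 89 for atl9 and 20 for rre2, beside 13.9% and 14.0% of all probe sets tested. AT1G09750 is also among the genes most like AT3G54400 on these arrays, so that its test is not independent of that likeness. Both calls sit at the threshold. They were kept in 8 of 34 alternatives for atl9 and in 14 of 34 for rre2 (adjusted p from 0.010 to 0.41 and from 0.00052 to 0.47), with the differences staying between -1.37 and -1.14 and between -1.68 and -1.21.

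**Figure D3:**
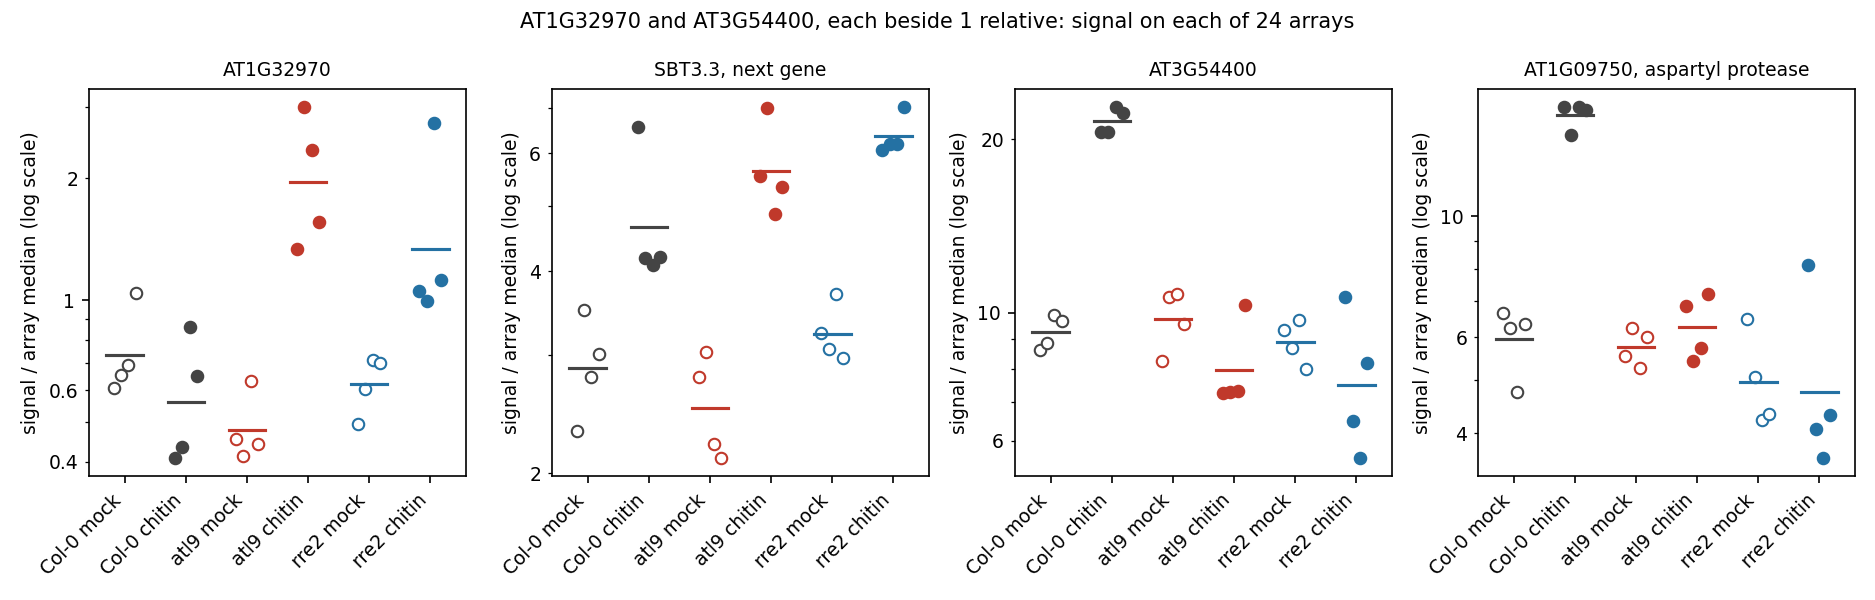
Signal divided by the array median (log axis, a separate range in each panel) of AT1G32970 and its neighbour SBT3.3, and of AT3G54400 and the aspartyl protease AT1G09750, on 24 arrays; open points are mock, filled points chitin and bars geometric means of 4 arrays. SBT3.3 is raised by chitin in all 3 lines, AT1G32970 in the mutants, and AT1G09750 is at 14.1 to 15.9 in chitin-treated Col-0 and at 8.15 or less elsewhere.

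Of 22 subtilases other than AT1G32970, 4 rose in Col-0, 1 in atl9 and 2 in rre2, and none fell (unadjusted p under 0.05: 6, 1 and 5, beside 29.9%, 20% and 23.8% of all probe sets tested). By the adjusted p, 11.8%, 7.74% and 8.55% of all rose in these lines and 5.67%, 3.09% and 4.43% fell. SBT3.3, described above, rose in all lines. AT4G10550 rose in rre2 by 1.60 ± 0.37 (limma adjusted p = 0.0043), with 0.54 ± 0.37 in Col-0 and 0.53 ± 0.37 in atl9. ARA12, a subtilase of the seed coat needed for the release of mucilage, rose in Col-0 by 0.50 ± 0.16 (adjusted p = 0.036). It did not pass without division by the median or with quantile normalization (limma adjusted p = 0.22 and 0.30), or without mock replicate 1, 2 or 4 or chitin replicate 2, 3 or 4 of Col-0 (up to 0.090). Over all alternatives, 10 of 34 lost the call of ARA12. The difference of responses was called for 0 of the 22 by limma in either mutant, with 6 and 5 at an unadjusted p under 0.05 (13.9% and 14.0% of all probe sets tested). AT4G10510 had responses of -1.66 in Col-0, 0.83 in atl9 and 0.28 in rre2. Their signs were those of AT1G32970 (-0.39, 2.03 and 1.11), but AT4G10510 was called in none of these responses or differences.

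Of 19 serine carboxypeptidase-like genes other than scpl30, 5 rose in Col-0, 1 rose in atl9 and 0 were called in rre2. Of all probe sets tested, 11.8%, 7.74% and 8.55% rose in these lines. In rre2, 3 of the 19 had an unadjusted p under 0.05, beside 23.8% of all. None of the 19 was called lower in any line by limma, beside 5.67%, 3.09% and 4.43% of all. SCPL45 rose in Col-0 from 1.47 ± 0.067 to 2.5 ± 0.15 times the median (SD, n = 4), a response of 0.77 ± 0.15 (limma adjusted p = 0.00082), and its values in atl9 and rre2 were 0.03 and 0.10 (SE 0.15 each). scpl46 rose in Col-0 by 0.72 ± 0.21 (adjusted p = 0.020). scpl31 rose in atl9 by 1.04 ± 0.31 (adjusted p = 0.034), with -0.43 ± 0.31 in Col-0 and -0.63 ± 0.31 in rre2. The call of scpl46 was lost without mock replicate 1 or 3 or chitin replicate 3 or 4 of Col-0 (limma adjusted p up to 0.071), and that of scpl31 without mock replicate 1, 3 or 4 or chitin replicate 2 or 4 of atl9 (up to 0.11). Over all alternatives, 6 of 34 lost the call of scpl46 (limma adjusted p up to 0.40) and 9 of 33 that of scpl31.

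The papain-like cysteine proteases held no call, with 0 of 8 tested probe sets past the limma threshold in any line and 0 at an unadjusted p under 0.05. Of all probe sets tested, limma called 11.8%, 7.74% and 8.55% higher in Col-0, atl9 and rre2, and 5.67%, 3.09% and 4.43% lower. At these shares few calls would fall among 8 probe sets, so their absence says little about this family. Of 6 protease inhibitors, 1 rose in Col-0, 2 in atl9 and 1 in rre2, too few probe sets to set against the shares of all. AT2G38870, a serine protease inhibitor of the potato inhibitor I type, rose in all lines, by 1.09 ± 0.24, 1.04 ± 0.24 and 1.36 ± 0.24 (limma adjusted p = 0.0023, 0.0043 and 0.00022). AT1G17860, an inhibitor of the Kunitz type, rose in atl9 by 0.53 ± 0.16 (adjusted p = 0.036), which 12 of 34 alternatives did not keep (6 of them without 1 atl9 array, mock replicate 1, 3 or 4 or chitin replicate 1, 3 or 4), and its Col-0 value was 0.45 ± 0.16 (adjusted p = 0.057).

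**Figure D4:**
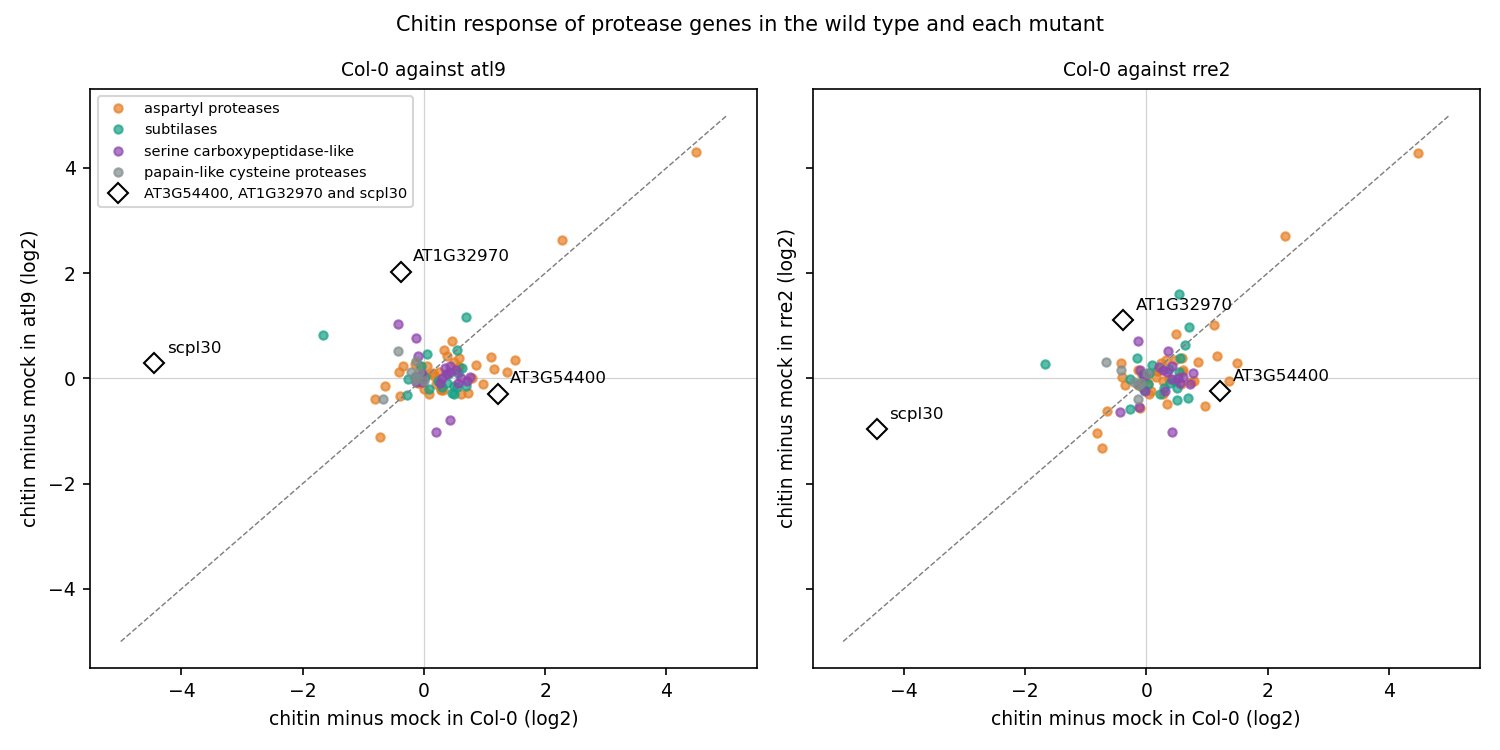
Chitin response (log2, chitin minus mock) in Col-0 on the horizontal axis against that in atl9 (left) and rre2 (right) for the 89 tested probe sets of 4 protease families and for AT3G54400, AT1G32970 and scpl30 (diamonds); the dashed line marks equal responses. AT1G32970 and scpl30 lie above the line and AT3G54400 below it in both panels, while AT5G48430, at 4.49 in Col-0, lies near it.

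The genes whose profiles over the 24 arrays came closest to each of the 3 genes were found by the root mean square difference of log2 levels, each centred on its own mean, among 8962 single-gene probe sets. For AT3G54400 they were DRT100 (0.19), TUB1 (0.23), AT5G51560 (0.24), AT4G25260 (0.24) and AT1G09750 (0.25), beside a median of 0.63 over all. DRT100 encodes a leucine-rich repeat protein and TUB1 a beta-tubulin. In Col-0 these 5 had responses between 0.90 and 1.37, and in the mutants between -0.27 and 0.12.

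For AT1G32970 the closest were AT2G14290 (0.49), UGT73B5 (0.50), AT2G22760 (0.54), AT5G44350 (0.54) and AT2G32150 (0.54), beside a median of 0.89. UGT73B5 encodes a glycosyltransferase. Its responses were 0.45 in Col-0, 1.31 in atl9 and 1.20 in rre2, and AT2G22760 had responses of 0.20, 2.04 and 1.99. The subtilases were not among these 5.

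For scpl30 the closest were JRG21 (1.12), AT5MAT (1.13), UF3GT (1.13), AT4G37850 (1.20) and JAL23 (1.28), beside a median of 2.26. AT5MAT and UF3GT encode a malonyltransferase and a glycosyltransferase acting on anthocyanins, AT4G37850 a basic helix-loop-helix protein and JAL23 a jacalin-related lectin. The Col-0 responses of JRG21, AT5MAT, UF3GT, AT4G37850 and JAL23 were -2.68, -2.80, -3.04, -2.39 and -1.92. Those in atl9 were 0.33, -0.10, -0.52, -0.38 and 0.53, and those in rre2 were -0.38, -0.89, -0.49, -0.22 and -1.30. Each of the 5 had its lowest group mean in chitin-treated Col-0, as scpl30 did. These 15 genes were chosen for their likeness on the same arrays, so their values are a description too.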

How the data were processed

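The authors extracted signals from 24 Affymetrix ATH1 arrays with GCOS 1.1, per the labels, and the deposited values are their linear signal intensities with a target of 500; GeneSpring 7.0 is named for later steps, which these values do not contain. Scan days and fluidics modules came from deposited instrument files. Each value was divided by its array's median over 22746 probe sets and log2 was taken without an offset. The probe sets of highest mean (72.7%) were tested by limma 3.58.1 under R 4.3.3, with 6 group means over 24 arrays and Benjamini-Hochberg adjusted p under 0.05; the script was tested on simulated data. Arrays have no read depth, and their number limits the precision. The 3 genes, the lists and the tests were chosen with earlier results of these data known. Labels of chitin-treated Col-0 call the treatment untreated in 1 field and chitin in the title and source name, and were taken as chitin. Of the probe sets, 13513 matched 1 gene in the platform's annotation, updated through TAIR10.1 gene numbers, and 503 matched several. The lists held 65 aspartyl proteases (52 with a probe set, 41 tested), 56 subtilases (45 and 23), 51 serine carboxypeptidase-like genes (29 and 20), 20 papain-like cysteine proteases (9 and 8) and 17 protease inhibitors (8 and 6). Named per list were up to 3 genes with the largest difference among those called in a chitin response or a difference of responses, the 5 closest profiles to each of the 3 genes, and up to 2 neighbours on each side with a single-gene probe set. Alternatives were no division by the median, quantile normalization, 32 added to each signal, all probe sets or the top 11000, no moderation, each array left out, the replicate number or scan day as a block, the last scan day alone, and fits of 16 arrays. The genes disrupted in the mutants are not analysed here.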

Additional observations from a re-analysis of the deposited data

Results flagged for a closer look

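In 3 of the 18 combinations of gene and group, 1 array stood apart from the other 3 by more of the group's range (log2) than Dixon's criterion allows, which chance exceeds in about 5% of groups. For AT3G54400 in atl9 after chitin, replicate 4 was high, at 10.3 times the array median against 7.26 to 7.33, a gap of 0.973 of the range. Without it the response of atl9 was -0.42 and its difference from Col-0 was -1.64. For AT1G32970 in rre2 after chitin, replicate 3 was high, at 2.73 against 0.998 to 1.12, a gap of 0.885 of the range. Without it the response of rre2 was 0.76. For scpl30 in atl9 after chitin, replicate 1 was low, at 4.22 against 10.5 to 11.5, a gap of 0.909 of the range, and without it the response of atl9 was 0.64.

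The aspartyl protease AT1G09750 had chitin responses that differed between lines by limma's test of the difference itself, by -1.25 for atl9 minus Col-0 and by -1.43 for rre2 minus Col-0. The calls were kept in 8 of 34 alternatives for atl9 and in 14 of 34 for rre2, and the gene is also among those picked for likeness to AT3G54400 on the same arrays. The level after chitin was lower than in all Col-0 chitin arrays in 4 of 4 arrays of each mutant. The same held for 10.5% of all probe sets tested in atl9 and 8.68% in rre2.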

How the results depend on the processing

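The 27 responses and differences of AT3G54400, AT1G32970 and scpl30 moved by less than 1 SD within groups in all alternatives but those given here. Many alternatives could not move them at all. These were the replicate number as a block, the other filters, no moderation and the fits of Col-0 with a single mutant. Leaving out an array of a group outside the comparison could not move a value either. The loss of a single array from a group shifts its mean by only a fraction of that group's SD. For these settings the tolerance of 1 SD is thus no test of stability. Of these 27 only a value near 0 changed sign, atl9 minus Col-0 in mock for AT3G54400, at -0.01 where the scan day was a block and -0.06 on the last scan day alone. With quantile normalization the response of AT3G54400 in Col-0 was 0.95. With the offset of 32 the response of AT1G32970 in atl9 minus Col-0 was 1.95. On the last scan day alone, AT1G32970 had a response of 2.56 in atl9, a difference of responses of 3.25 and a difference of 2.37 from Col-0 after chitin, and scpl30 had a response of -3.14 in Col-0, a difference of responses (rre2 minus Col-0) of 1.76 and a difference of 3.51 between rre2 and Col-0 after chitin. The alternatives for the line differences in mock and after chitin were added after seeing the data.

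Of the 89 protease probe sets, the last scan day alone called 6 in Col-0 and 3 in atl9, with 2 arrays per group. It called 0 of them after chitin between atl9 or rre2 and Col-0, and 0 in both differences of responses. The share of all probe sets called on that day is not given here. The filter of 11000 left 58 of the 89, of which 3 were called in atl9, 3 in rre2 and 2 in each difference of responses. Values as deposited called 17 in rre2 and quantile normalization 14, and both gave 0 in each difference of responses, as did no filter (132 tested), no moderation and the scan day as a block; the fits of 16 arrays gave 0 for rre2. With each array left out in turn, 13 to 23 were called in Col-0, with 14 after leaving out mock replicate 1 of Col-0, 14 after leaving out its chitin replicate 3 and 13 after leaving out its chitin replicate 4. In atl9 there were 3 to 6, the 3 without atl9 mock replicate 4. After chitin 7 to 18 were called between atl9 and Col-0, with 7 without Col-0 chitin replicate 4 or atl9 chitin replicate 3. Between rre2 and Col-0 there were 8 to 21, with 11 and 8 without Col-0 chitin replicates 3 and 4, and 8 and 10 without rre2 chitin replicates 3 and 4. The differences of responses had 0 to 2 in each mutant, changed by the loss of 20 of 24 arrays for atl9 and of 14 for rre2. Dividing by the array median rather than by nothing moved the median response of all probe sets from -0.16 to 0.05 in Col-0, from -0.16 to 0.01 in atl9 and from -0.17 to 0.00 in rre2.

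Replicate numbers recur in all groups, but the samples share only a number. Of 60 pairs of arrays with the same number, 16 had deviations correlated above 0.1, and 9 of 24 arrays were closest to one of the same number. The mean correlation of deviations between groups was 0.008 for the same number and -0.002 for another number. For arrays of the same scan day it was 0.087, and for other days -0.042. With the number as a block, 21 of the 89 were called in Col-0, 5 in atl9 and 6 in rre2, and 1 in each difference of responses. The values of the 3 genes could not change under this block, since every group holds each number once. Of 835 further alternative values, those of the other genes named and of the responses of atl9 minus rre2, 93 lost their call with the direction kept, and 2 of atl9 minus rre2 moved by more than the spread, on the last scan day alone.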
